A study of Mus musculus with 24 samples.

Results

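Microglia of 4 aged mice without a working copy of 3110043O21Rik, the mouse counterpart of human C9orf72, were compared with microglia of 4 wild-type mice of the same age. The 8 libraries are among the 24 of the study, which sampled 3 genotypes at 3 and 17 months with 4 mice in each of 6 groups. The 8 were chosen by the genotype and age in the column headers of the 17-month tables, and no measured value entered that choice. The RPKM headers name the genotype, and the TPM columns were matched to them by animal number (both measures are explained below). All mice carried the C57BL/6J strain label. The knockout groups were labelled homozygous or heterozygous for the loss of C9orf72, and how the allele was made is not given in the sources used here. Each table column bore the number of a mouse, for which the labels give no counterpart. The animals are named here by genotype and number, as WT-7782, WT-7783, WT-7785 and WT-7943 for wild types and HOM-7835, HOM-7893, HOM-7899 and HOM-7901 for homozygotes. Values per animal are always listed in that order, and where the values of both groups are given together, those of the wild types come first. The 4 heterozygotes of 17 months, HET-7791, HET-7794, HET-7795 and HET-7796, entered the estimate of the spread, and the 3-month animals of the 3 genotypes were used for the comparison of ages. Columns of these 4 are headed hemi, which was taken to mean the group labelled heterozygous.

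Microglia are the resident macrophages of the brain, which survey tissue through purine and lipid receptors, clear debris and release cytokines. The C9orf72 protein forms a complex with Smcr8 and Wdr41 that acts on small GTPases, autophagy and lysosomes, and a repeat expansion in the human gene is a frequent inherited cause of amyotrophic lateral sclerosis and frontotemporal dementia. Myeloid cells express the gene strongly, and mice that lack it are known for enlarged lymphoid organs and activated myeloid cells. The comparison addresses what the loss of both copies does to the transcripts of old microglia.

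The cells came from brains stripped of meninges, dissociated with papain, depleted of myelin with one set of beads and then enriched with CD11b beads, per the labels' protocols. The enrichment keeps other CD11b-positive cells as well as microglia. The values are TPM, transcript abundances scaled for transcript length and library size, and genes were tested on log2(TPM + 1). Wild-type libraries held from 16.7 M alignments (WT-7782, M being mega) to 35.7 M, and homozygous libraries from 40.7 to 46.4 M (HOM-7899). The homozygous libraries were deeper without overlap, at 42.4 ± 2.67 against 30.4 ± 9.15 M alignments (SD, n = 4, exact two-sided permutation test, p = 0.0286). Transcripts of 4 Y-linked genes marked 1 wild type (WT-7785) and 3 homozygotes (HOM-7835, HOM-7893, HOM-7899) as male, so the groups also differed in sex. The heterozygote HET-7796, which enters the shared estimate of the spread, correlated least with the other animals (mean r 0.960, against 0.970 to 0.981 for the other 11). The microglial identity of the libraries stood out in every animal. The summed TPM of 25 homeostatic microglial genes was 93830, 80080, 86430 and 79370 in the wild types and 84340, 73020, 74630 and 69170 in the homozygotes, where the highest summed list of another brain cell type was that of oligodendrocytes and myelin, at most 8013.

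The targeted transcript was nearly absent from the homozygotes. 3110043O21Rik (chromosome 4, 35191285 to 35226175, minus strand, mm10, where GENCODE names it C9orf72) was at 16.7, 15.1, 14.4 and 13.2 TPM in the wild types. In the homozygotes it was at 0.0333, 0.0484, 0.0148 and 0.0477 TPM, 0.243% of the wild-type mean (exact two-sided permutation test, p = 0.0286, the smallest that 4 against 4 animals can give). The heterozygotes lay between, at 6.53, 7.89, 8.95 and 5.45 TPM. The RPKM table (reads scaled for gene length and number of alignments) gave 8.33 ± 0.363 against 0.0196 ± 0.0140 RPKM (SD, n = 4, exact permutation p = 0.0286). All 8 animals thus matched their labelled genotype.

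None of the partners of C9orf72 passed the test. Atg101, a subunit of the ULK1 complex that starts autophagosomes, came closest, at 35.4, 34.6, 39.9 and 33.5 TPM in wild types and 44.4, 47.3, 52.3 and 49.5 TPM in homozygotes. All 4 homozygotes lay above all wild types, with a log2 difference of 0.42 and an adjusted p = 0.0726 (limma, as for all adjusted p values here). Smcr8, which holds C9orf72 in the complex, was at 14.4 ± 2.51 and 17.1 ± 1.798 TPM (SD, n = 4, adjusted p = 0.466). Wdr41, which tethers the complex to lysosomes, was at 25.6 ± 2.698 and 25.6 ± 0.519 TPM (adjusted p = 0.986). The kinase Ulk1 was at 14.1 ± 2.19 and 16.7 ± 1.88 TPM, and its partners Atg13 and Rb1cc1 differed by 0.21 and -0.28 on the log2 scale (adjusted p = 0.535 and 0.301). In the RPKM table Ulk1 was called higher (log2 difference 0.45, adjusted p = 0.0439).

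Across the transcriptome, 84 of 11792 genes passed an adjusted p of 0.05. In all, 55 were higher in homozygotes (0.466% of genes tested) and 29 were lower (0.246%), the targeted gene included. Among the genes that rose were Zfp36 and Nr4a1 of the immediate early list, Vtn and Pdgfrb of the endothelial and mural list and Ccdc153 and 1500015O10Rik of the choroid plexus and ependyma list. Among those that fell were the microglial receptor Gpr34, the endosomal GTPase Rab5a and the myelin gene Ermn. In each of the 84 the homozygous and the wild-type animals did not overlap, which a call of this size largely requires. Over all genes tested, the homozygotes lay entirely above the wild types in 1120 (9.50%) and entirely below in 477 (4.05%). The median log2 difference of all genes was 0.054, and 60% of them had a positive difference.

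These calls stood near the threshold. Besides the targeted gene, the smallest adjusted p was 0.0280, and 71 of the 84 lay above 0.04. Without WT-7782 or HOM-7901 the number called fell to 2, and without WT-7783, WT-7943, HOM-7893 or HOM-7899 the targeted gene alone was left. Without HET-7796 it was 368 (267 higher, 101 lower), without HOM-7835 it was 159, without WT-7785 it was 143 and without HET-7791 it was 38. Without both WT-7782, the shallowest library, and HET-7796 it was 292 (213 higher, 79 lower), a setting chosen after seeing the data. With a sex term 5 genes were called (3 higher, 2 lower), of which 2 were among the 84, and with the number of alignments as a term 1 was, so that depth and, in part, sex cannot be told apart from genotype for single genes. The balance of directions moved with the scaling. It was 213 higher and 48 lower with libraries rescaled to the same sum, 204 higher and 405 lower with median centring, 278 higher and 355 lower with quantile normalization and 671 higher (5.48%) and 205 lower (1.67%) in the RPKM table. The RPKM calls were no steadier, at 169 with a sex term, 1 without HOM-7893 or HOM-7899, 94 without WT-7943, 137 without HOM-7901, 195 without WT-7783 and 1513 without HET-7796. Since the groups of all 84 genes lie apart, their direction could not turn when animals were left out, and is no sign of stability there. The size of the differences with a sex term was 0.981 times the main size at the median, from 0.738 to 1.29 times.

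**Figure D1:**
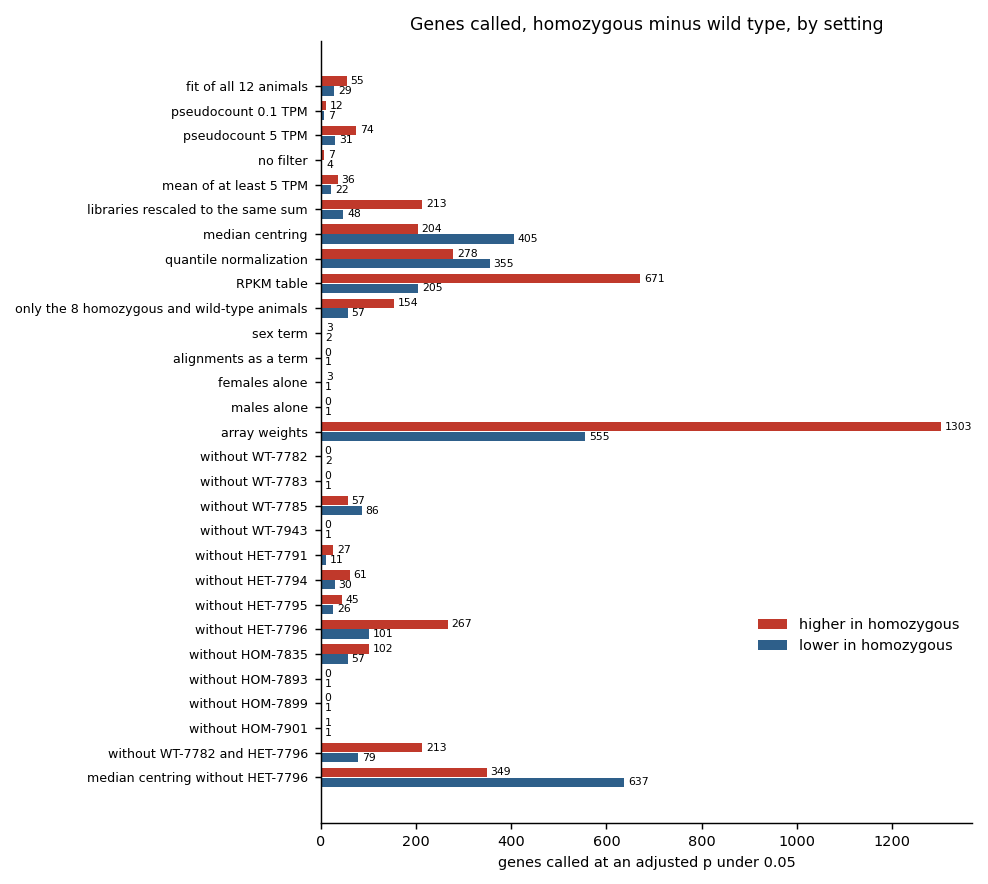
Number of genes called at an adjusted p under 0.05 between homozygous and wild-type animals, higher (red bars) and lower (blue bars) in homozygotes, in the fit of all 12 animals and in each other setting. The fit of all 12 animals gave 55 and 29, and the counts ran from 1 gene in all with alignments as a term to 1303 and 555 with array weights.

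The 2 quantifications of the same libraries mostly gave the same genes. Of the 84 genes, 80 were also called in the RPKM table in the same direction (52 higher, 28 lower). Gnmt, a methyltransferase of glycine (0.463, 0.734, 0.644 and 0.497 TPM in wild types, 1.13, 2.38, 1.84 and 2.76 in homozygotes), has no tested RPKM value. Hltf, a helicase-like DNA repair factor, was the lower gene, besides the target, with the largest gap between the tables. It was at 21.03, 14.8, 15.3 and 16.7 TPM in wild types and 8.96, 3.77, 4.61 and 8.59 TPM in homozygotes (log2 difference -1.32, adjusted p = 0.0440) but differed by -0.30 in the RPKM table (adjusted p = 0.107). The hormone gene Insl3 and the cilium-related gene Odf3b were higher in both tables but passed in the TPM table alone (RPKM adjusted p = 0.0773 and 0.104).

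**Figure D2:**
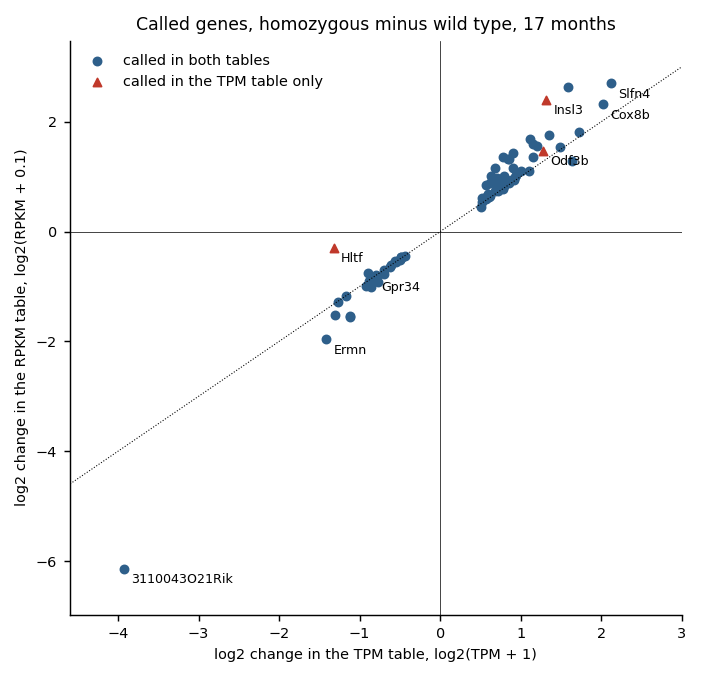
Log2 difference between homozygous and wild-type animals in the TPM table (x axis) and in the RPKM table (y axis) for the 83 called genes with a value in both, with the line of equality dotted. The targeted gene lies far below the others and Hltf, at -1.32 and -0.30, lies farthest from the line among the rest of the lower genes.

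The microglial surface receptor Gpr34, a receptor for lysophosphatidylserine, fell in homozygotes. Gpr34 (chromosome X, 13632089 to 13640858, plus strand, mm10) was at 549.5, 695, 620.5 and 747 TPM in wild types and at 439, 340.4, 308 and 388 TPM in homozygotes. The highest homozygote, HOM-7835, lay below the lowest wild type. The log2 difference was -0.83 (SE 0.14, adjusted p = 0.0349), and the heterozygotes, at 497, 619, 698 and 630.1 TPM, were near wild type (-0.10, adjusted p = 0.970). The difference between homozygotes and heterozygotes was itself called (log2 difference -0.73, adjusted p = 0.0138). The gene kept its call in 6 of the 12 fits that left out 1 animal.

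Other genes of resting microglia were not called in the TPM table. Of 24 homeostatic genes tested, 1 (Gpr34) fell, 0 rose and 21 had a negative difference (87.5%, beside 40% of all genes). The median was -0.17 against 0.054 for all genes, and 2 of the list were lower in the RPKM table. P2ry12, the ADP receptor that guides process extension, was at 1637, 1578, 2221 and 1521 TPM in wild types and 1594, 1180, 1001 and 798 TPM in homozygotes. The groups overlapped, with HOM-7835 inside the wild-type range, and the log2 difference of -0.63 was not called (adjusted p = 0.123, 0.0467 in the RPKM table). The related receptor P2ry13 differed by -0.38 (adjusted p = 0.179). Tmem119 and the fractalkine receptor Cx3cr1 were at 2054 ± 212 against 1837 ± 328 and at 2299 ± 318 against 2002 ± 296 TPM (SD, n = 4, adjusted p = 0.635 and 0.545). With a sex term the differences were larger, at -0.91 for P2ry12 (adjusted p = 0.0799), -0.58 for P2ry13 (adjusted p = 0.0827) and -0.34 for Cx3cr1 (adjusted p = 0.364), and the median of the list was -0.27. With 1 animal left out the median ran from -0.26 to -0.10.

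Genes that microglia switch on around lesions gave no call in the aged homozygotes. Of 29 disease-associated genes 0 were called in either direction in the TPM table (3 lower in the RPKM table), and the median was -0.17. Lpl, lipoprotein lipase, was at 101, 102, 56.9 and 51.8 TPM in wild types and 39.1, 26.9, 48.2 and 45.6 TPM in homozygotes (log2 difference -0.91, adjusted p = 0.0762). The groups did not overlap, and WT-7785 and WT-7943 lay closer to the homozygotes than to the other wild types. Clec7a, the beta-glucan receptor dectin-1, was at 119, 119.5, 82.5 and 76.05 and 66.98, 51.3, 70.3 and 62.2 TPM (-0.63, adjusted p = 0.0959). The secreted protein Spp1 was at 422 ± 165 and 227 ± 77.98 TPM (SD, n = 4, adjusted p = 0.133), and Ctsl, a cathepsin, differed by -0.29 (adjusted p = 0.125). Lpl, Spp1 and Clec7a were each called lower in homozygotes than in heterozygotes (log2 differences -1.37, -1.42 and -0.93). Apoe, the lipid carrier that marks this state most strongly, was at 11990 ± 3200 and 11940 ± 1174 TPM (adjusted p = 0.960), and the sign of its difference changed between settings.

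Of 37 endosome and small GTPase genes 1, Rab5a, fell and 0 rose (median -0.11), with 2 higher and 2 lower in the RPKM table. In 3 of the 37 the homozygotes lay entirely above the wild types and in 3 entirely below, beside 9.50% and 4.05% of all genes. Rab5a, the GTPase of early endosomes, was at 52.1, 51.1, 59.1 and 47.2 TPM in wild types and 42.5, 36.1, 35.97 and 34.3 TPM in homozygotes, without overlap (log2 difference -0.48, SE 0.10, adjusted p = 0.0468). Outside the list, and set beside it after their values were seen, 4 more genes called lower act in membrane or protein traffic. Vamp7, a SNARE of late endosomes and lysosomes, was at 6.69, 8.35, 6.12 and 7.99 and 4.41, 3.23, 2.97 and 3.74 TPM (-0.85, adjusted p = 0.0410). Tmed5, a cargo receptor between the endoplasmic reticulum and the Golgi, was at 25.2, 31.9, 35.2 and 39.2 and 22.7, 16.1, 15.02 and 15.2 TPM (-0.89, adjusted p = 0.0440). In each of these 3 genes the homozygotes lay below the wild types and HOM-7835 was the homozygote nearest to them. The dynein light chain Dynlt1b fell from 59.3 ± 9.62 to 31.98 ± 7.002 TPM, and the VCP-binding protein Svip from 11.7 ± 3.16 to 5.54 ± 0.844 TPM (SD, n = 4, adjusted p = 0.0440 each). Both were low in heterozygotes too, where Dynlt1b averaged 35.7 TPM and Svip was also called lower than in wild types. In the endosome list Vps35, of the retromer, and Rab11a, of recycling endosomes, were not called (log2 differences -0.40 and -0.22). Of 44 lysosomal genes 0 were called in the TPM table (1 higher and 3 lower in the RPKM table), with a median of -0.07. In 2 of the 44 the homozygotes lay entirely above the wild types and in 2 entirely below. Cln3 was among those above, at 56.95 ± 7.95 and 70.95 ± 5.23 TPM (SD, n = 4, adjusted p = 0.156, 0.0398 in the RPKM table). Lamp2, a major lysosomal membrane protein, was at 244, 237, 259.5 and 227 and 225, 167, 165 and 166 TPM (adjusted p = 0.0897), and its 4 homozygotes lay below all wild types. Ctss, the cathepsin that trims the MHC class II invariant chain, was at 11450 ± 525 and 8826 ± 869 TPM (adjusted p = 0.0915), also without overlap.

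Autophagy and mTORC1 genes gave no call in the TPM table. The 37 autophagy genes had a median of -0.0029, with 4 higher and 1 lower in the RPKM table. Atg16l1, which helps to attach LC3 to membranes, was at 18.3 ± 1.32 and 23.5 ± 1.94 TPM (SD, n = 4, adjusted p = 0.107), and the cargo receptor Tax1bp1 at 53.4 ± 5.43 and 38.3 ± 7.25 TPM (adjusted p = 0.111). The 31 mTORC1 and nutrient-sensing genes had a median of 0.11, with 2 higher in the RPKM table. The mTOR subunit Mlst8 was at 0.38 and the GATOR1 subunit Nprl3 at 0.42 (adjusted p = 0.128 and 0.118). Other microglial genes that fell were Hpgd, which inactivates prostaglandins (244 ± 22.98 to 165 ± 23.2 TPM), Hnmt, which inactivates histamine (27.9 ± 2.96 to 19.6 ± 1.83 TPM), and the sialic acid lectin Siglecf (26.8 ± 3.12 to 16.1 ± 2.18 TPM). Their log2 differences were -0.57, -0.48 and -0.70 (adjusted p = 0.0440, 0.0468 and 0.0440), and they are named after their values were seen.

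**Figure D3:**
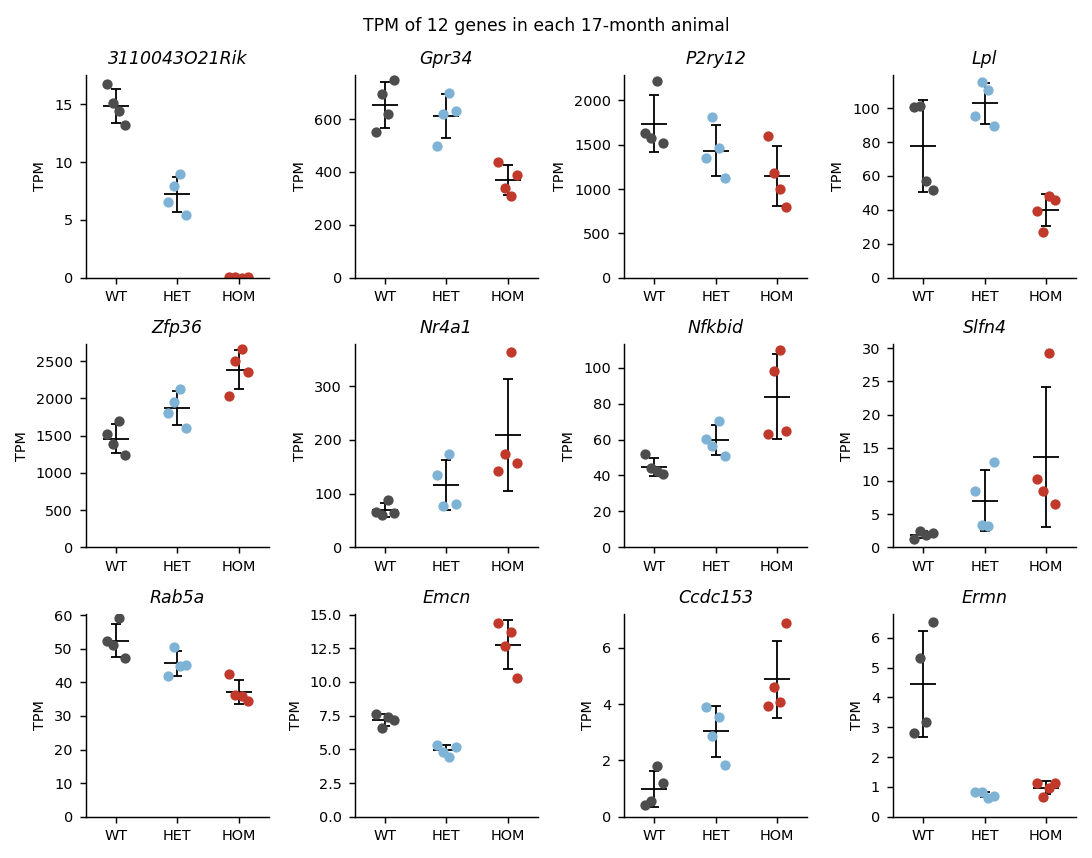
TPM of 12 genes in each 17-month animal (points), with the mean and SD of each genotype (horizontal line and bars, 4 animals per group), for wild type (WT), heterozygous (HET) and homozygous (HOM) animals. The target, Gpr34, P2ry12, Lpl, Rab5a and Ermn lie lower in homozygotes and Zfp36, Nr4a1, Nfkbid, Slfn4, Emcn and Ccdc153 higher, while P2ry12 overlaps between the groups and Nr4a1 and Slfn4 have HOM-7899 far above the rest.

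Of the immediate early genes, Zfp36 and Nr4a1 rose in the homozygotes. These genes are transcribed within minutes of a stimulus, and tissue dissociation can induce them too, whose part here was not tested. Of 33 tested, 32 had a positive difference (beside 60% of all genes) and 2 were called, and the median was 0.52 against 0.054 for all genes. Of the 33, 10 were called higher in the RPKM table. The summed TPM of the list was 10090, 8332, 11620 and 7812 in wild types and 11330, 14750, 16590 and 13370 in homozygotes. HOM-7835 lay within the wild-type range and the others above it. The male WT-7785 was the highest wild type. Among males alone, where WT-7785 is the only wild type, the median was 0.16. With a sex term over all animals the median was 0.41. The heterozygotes, all female, summed to 12570, 14350, 13900 and 10200, and their median difference from wild type was 0.42, so that homozygotes exceeded heterozygotes by a median of 0.10.

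The promoters of the called pair are shown because they carry motifs of stimulus-driven transcription. Each is the 250 bases before the start of transcription in RefSeq (GRCm38.p6), 5′ to 3′ on the gene's strand, and positions count back from that start. In Zfp36 (chr7:28379229-28379478, minus strand) the capitals mark a CArG box, the binding motif of serum response factor, whose first base lies at position -58. Its middle letters are also those of a TATA-like element, so the 2 readings overlap. In Nr4a1 (chr15:101266596-101266845, plus strand) the capitals mark 4 copies of TGACG, the core of the cyclic AMP response element (CRE), read on either strand, whose first bases lie at positions -233, -213, -69 and -40.
Zfp36: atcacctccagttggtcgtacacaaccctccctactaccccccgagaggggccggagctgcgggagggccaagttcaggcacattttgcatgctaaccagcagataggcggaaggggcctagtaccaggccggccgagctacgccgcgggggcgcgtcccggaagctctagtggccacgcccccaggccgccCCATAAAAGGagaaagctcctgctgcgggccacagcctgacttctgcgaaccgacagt
Nr4a1: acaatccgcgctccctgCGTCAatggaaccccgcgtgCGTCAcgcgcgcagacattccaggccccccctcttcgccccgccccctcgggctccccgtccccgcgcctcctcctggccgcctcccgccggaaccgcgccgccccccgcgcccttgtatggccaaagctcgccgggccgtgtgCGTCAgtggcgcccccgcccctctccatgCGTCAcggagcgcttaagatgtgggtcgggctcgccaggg
Of the 33 immediate early genes, 27 have a promoter in the table. The CRE core TGACG was found in 14 of the 27 (51.9%), against 19.8% of the 27025 genes with a promoter of that length. The full element TGACGTCA, which holds the core on both strands, was in 3 (11.1% against 1.77%), and a CArG box in 3 (11.1% against 1.62%). The AP-1 motif TGANTCA was in 1 (3.70% against 7.82%) and an NF-kB pattern, GGG and CC parted by any 5 bases, in 20 (74.1% against 48.7%). That pattern was as frequent among the genes called higher (73.3%) and called lower (76.2%), so its share is not particular to immediate early genes. The core TGACG was in 28.9% and 28.6% of those 2 sets. All were searched on both strands, and a match describes letters and not a bound site.

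Zfp36 encodes tristetraprolin, which destroys the messages of inflammatory cytokines. It was at 1522, 1388, 1691 and 1238 TPM in wild types and 2032, 2505, 2660 and 2358 TPM in homozygotes. All 4 homozygotes lay above the highest wild type, WT-7785 (log2 difference 0.71, SE 0.12, adjusted p = 0.0410). The heterozygotes, at 1798, 1956, 2130 and 1602 TPM, overlapped both groups. Nr4a1, a nuclear receptor that restrains myeloid activation and marks patrolling monocytes, was at 65.97, 59.3, 87.5 and 63.1 TPM in wild types and 142, 174, 363 and 156 TPM in homozygotes. All homozygotes lay above all wild types and HOM-7899 well above the other 3 (log2 difference 1.49, SE 0.30, adjusted p = 0.0468). Fosb, an AP-1 subunit, was at 28.7 ± 11.8 and 63.9 ± 14.9 TPM and the stress gene Ier3 at 131 ± 24.3 and 206 ± 28.6 TPM (SD, n = 4, adjusted p = 0.0658 and 0.0639), so neither passed.

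Nfkbid, a gene of NF-kB signalling named after its value was seen, was called, and the cytokines were not called in the TPM table. Nfkbid is a nuclear IkB protein that tunes NF-kB target genes, and it was at 51.9, 44.00, 42.6 and 40.7 TPM in wild types and 63.2, 98.4, 109.8 and 64.7 TPM in homozygotes. The lowest homozygote lay above the highest wild type, WT-7782 (log2 difference 0.86, SE 0.17, adjusted p = 0.0468). The 33 cytokines and NF-kB targets tested had 24 positive differences (72.7%, beside 60% of all genes), a median of 0.22 and 0 calls (3 higher and 1 lower in the RPKM table). Heterozygotes differed from wild type by a median of 0.23, so that homozygotes minus heterozygotes had a median of -0.04. With a sex term the median between homozygotes and wild types was 0.12. Il1b was at 105, 91.9, 127 and 82.7 TPM in wild types and 178, 196, 235 and 152 TPM in homozygotes, without overlap (log2 difference 0.90, adjusted p = 0.0911, 0.0474 in the RPKM table). Its heterozygotes were at 143, 115, 304 and 163 TPM. Socs3, which limits cytokine signalling, was at 97.8 ± 20.8 and 148 ± 19.5 TPM (SD, n = 4, adjusted p = 0.107). The chemokine Cxcl1 and the cytokine Il10 were low in all animals and not called (log2 differences 0.69 and 1.02, adjusted p = 0.0822 and 0.109).

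Slfn4, a Schlafen family gene of activated myeloid cells, had the largest log2 difference of the genes that rose. It was at 1.28, 2.42, 1.82 and 2.08 TPM in wild types and 10.3, 8.43, 29.2 and 6.53 TPM in homozygotes, with HOM-7899 far above the other 3 (log2 difference 2.12, SE 0.43, adjusted p = 0.0468). The heterozygotes ranged from 3.25 to 12.9 TPM, and HET-7791 and HET-7796, the highest in Slfn4, also had the highest summed neutrophil markers (11640 and 11880 TPM). The part of such cells in this result was not tested.

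Type I interferon genes gave no call, and most had a small positive difference. Of 39 tested, 33 had a positive difference (84.6%, beside 60% of all genes), the median was 0.26 and 0 were called (2 higher in the RPKM table). Their summed TPM was 1834, 1584, 1568 and 1881 in wild types and 2414, 1573, 3699 and 2274 in homozygotes. HOM-7893 lay within the wild-type range and HOM-7899 far above it, and without HOM-7899 the median was 0.16. The signalling factor Stat2 was at 23.97, 17.5, 19.01 and 17.6 and 27.3, 24.1, 35.2 and 28.02 TPM (adjusted p = 0.102), and the antiviral genes Oas2 and Ifitm3 differed by 0.85 and 0.84 (adjusted p = 0.109 and 0.133). Sp100, a nuclear body protein, differed by 0.50 (adjusted p = 0.128). Of 24 genes of nucleic acid sensing 0 were called (2 higher and 2 lower in the RPKM table), with a median of 0.13. There the interferon regulator Irf5 was at 269.7 ± 29.9 and 320.5 ± 20.3 TPM (SD, n = 4, adjusted p = 0.206, 0.0420 in the RPKM table). The endosomal RNA sensor Tlr7 was at 94.5 ± 12.7 and 70.2 ± 3.21 TPM (adjusted p = 0.169).

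Antigen presentation, complement and pattern recognition gave no call in the TPM table. MHC class I genes had a median of 0.19 over 20, with H2-Q4 at 144, 133, 134 and 160.1 and 213, 189.6, 279.6 and 187 TPM (adjusted p = 0.0660, 0.0231 in the RPKM table) and the immunoproteasome subunit Psmb9 at 0.30. MHC class II genes had a median of -0.03 over 14, with H2-Ab1 at 0.57 and H2-Oa at -0.43 (adjusted p = 0.167 and 0.128). Complement genes had a median of -0.07 over 19. Cfp, the activator properdin, differed by 0.75 (adjusted p = 0.0706). The 19 Toll-like receptor genes had a median of -0.17 and 13 negative differences (68.4%, beside 40% of all genes). Tlr3, Tlr12 and the accessory protein Ly86 differed by -0.38, -0.40 and -0.23 (adjusted p = 0.151, 0.181 and 0.131). Of 24 phagocytic receptors Gpr34 was the 1 call in the TPM table, with 2 higher and 3 lower in the RPKM table. The integrin Itgav and the lipoprotein receptor Scarb1 differed by -0.47 and 0.40 (adjusted p = 0.148 and 0.150).

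**Figure D4:**
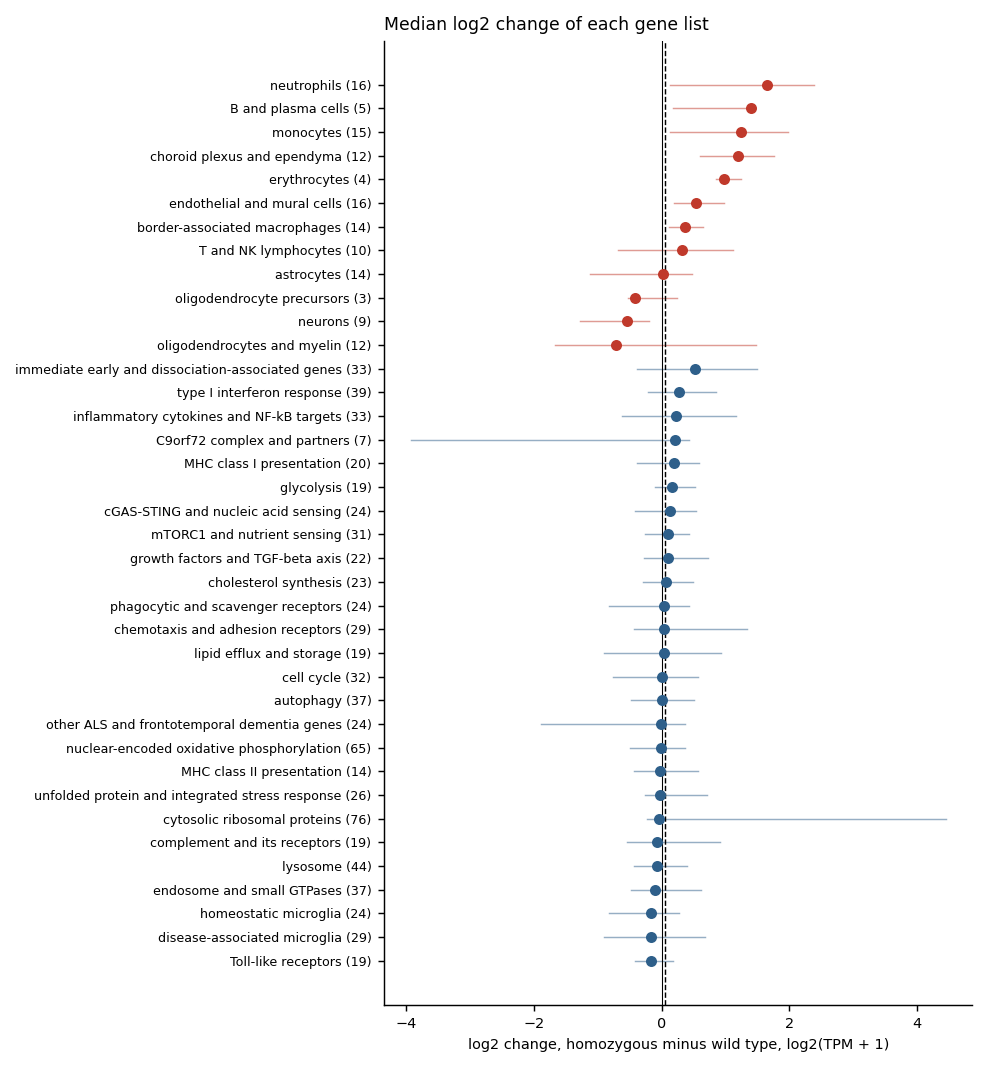
Median log2 difference, homozygous minus wild type, of each gene list (points) with a line from its lowest to its highest member and the number of genes tested in brackets, for pathway lists (blue) and markers of other cells (red), and with the median of all genes (0.054) dashed. Marker lists span from -0.72 for myelin to 1.66 for neutrophils, and the pathway lists besides the immediate early genes (0.52) lie between -0.17 and 0.26.

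Lipid and energy metabolism gave 2 calls in the TPM table. Pltp, which transfers phospholipids between lipoproteins, rose from 117, 124, 151 and 104 TPM in wild types to 206, 212, 241 and 193 TPM in homozygotes (log2 difference 0.78, SE 0.14, adjusted p = 0.0440). It was the 1 call among 19 genes of lipid efflux and storage, whose median was 0.03 (2 higher and 1 lower in the RPKM table). Nr1h2, the liver X receptor beta that governs cholesterol efflux, was at 69.3, 59.1, 59.98 and 53.5 and 81.1, 84.9, 90.6 and 76.4 TPM, without overlap but not called (adjusted p = 0.0748, 0.0182 in the RPKM table). Slc2a1, the glucose transporter GLUT1, which brain endothelium expresses strongly, rose from 87.5 ± 5.61 to 126 ± 15.6 TPM (SD, n = 4, log2 difference 0.51, adjusted p = 0.0468). The other 18 glycolytic genes were not called in the TPM table (3 of the list were higher in the RPKM table), and the median of the list was 0.16. Cholesterol synthesis had a median of 0.06 over 23 genes and 0 calls. The 65 oxidative phosphorylation genes had a median of -0.01 and the 76 ribosomal protein genes one of -0.04, with 0 calls in either table. Rps27 was listed at or below 0.0126 TPM in all wild types and in HOM-7899, at 86.7, 87.4 and 29.0 TPM in the other homozygotes, and differed by -0.06 in the RPKM table.

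The summed markers of brain vessels were higher in every homozygote than in any wild type. Singly, 7 of the 16 tested lay so, beside 9.50% of all genes. In bulk libraries, more cells of a type and more RNA per cell cannot be told apart. The summed TPM of 18 endothelial and mural markers was 281, 295, 319 and 356 in wild types, 536, 504, 569 and 419.8 in homozygotes and 277, 217, 206 and 217 in heterozygotes. All 16 tested had positive differences, 2 of them called, with a median of 0.54 (0.33 with a sex term). The called pair are known from pericytes. Vtn, vitronectin, was at 12.2, 16.1, 17.6 and 17.5 and 27.6, 36.3, 28.9 and 31.1 TPM (log2 difference 0.93, adjusted p = 0.0440) and Pdgfrb, the PDGF receptor, at 1.82, 1.74, 1.75 and 1.61 and 2.91, 3.37, 3.05 and 2.96 TPM (0.57, adjusted p = 0.0459). Ly6a and the smooth muscle myosin Myl9 came next (adjusted p = 0.0513 and 0.0505). The endothelial marker Cldn5 differed by 0.75 (adjusted p = 0.0726).

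Further called genes are known from vessels, and they are grouped here after their values were seen. Emcn, endomucin of the endothelial surface, was at 7.601, 6.602, 7.43 and 7.14 TPM in wild types and 14.4, 12.7, 13.7 and 10.3 TPM in homozygotes (log2 difference 0.74, SE 0.12, adjusted p = 0.0349). The heterozygotes were the lowest, at 5.32, 4.83, 4.43 and 5.14 TPM. The thyroxine carrier of the blood-brain barrier Slco1c1 rose from 18.6 ± 1.65 to 28.8 ± 1.07 TPM (SD, n = 4). Egfl7, Robo4 and Rasip1, which shape vessels, rose by 0.88, 0.75 and 0.70 on the log2 scale. Components of the basement membrane rose with them, among them the laminin chain Lama5 (0.63), perlecan Hspg2 (0.78) and the collagen Col18a1 (0.68). Id1 and Id3, targets of BMP signalling with high levels in endothelium, rose from 14.7 ± 4.73 to 32.1 ± 4.84 and from 24.9 ± 3.25 to 50.9 ± 5.17 TPM (adjusted p = 0.0479 and 0.0349). The chemokine Cxcl12 rose from 16.2 ± 2.99 to 32.02 ± 9.84 TPM (adjusted p = 0.0479). All of these were called higher in homozygotes than in heterozygotes too, comparisons that share the homozygous animals. The part that a different share of vessel cells has in the rise of these genes, and in that of Slc2a1, was not tested.

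Markers of choroid plexus and ependyma were the most raised of the tissue markers. Their summed TPM was 734, 1480, 1006 and 324 in wild types and 1568, 2266, 2953 and 4468 in homozygotes, so the groups did not overlap and HOM-7901 was the highest. Most of each of these sums was the 1 transcript Ttr, whose values are given below. Singly, 5 of the 12 tested had all homozygotes above all wild types, beside 9.50% of all genes. All 12 tested were higher, with a median of 1.19, from 0.85 to 1.34 with 1 animal left out, and 2 were called. Ccdc153, of ciliated ependymal cells, was at 0.432, 0.548, 1.802 and 1.19 and 3.93, 4.604, 4.08 and 6.89 TPM (log2 difference 1.59, adjusted p = 0.0349). 1500015O10Rik (also called Ecrg4), a secreted product of choroid plexus, was at 11.3 ± 5.95 and 39.3 ± 19.2 TPM (SD, n = 4, log2 difference 1.73, adjusted p = 0.0468). Transthyretin, Ttr, the main product of that tissue, was at 705, 1428, 974 and 307 and 1508, 2186, 2866 and 4288 TPM and was not called (1.77, adjusted p = 0.0603, 0.0289 in the RPKM table). The folate receptor Folr1 was at 3.77 ± 1.98 and 14.6 ± 8.42 TPM (SD, n = 4, adjusted p = 0.0564). No marker of this list was at 0 in all animals, and the part of such cells in the genes that follow was not tested.

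Further called genes outside that list are known from choroid plexus or neighbouring tissue, and they are grouped here after their values were seen. Cox8b, a subunit of cytochrome c oxidase, was at 5.34, 7.101, 3.96 and 2.45 and 11.3, 16.4, 25.1 and 41.1 TPM (log2 difference 2.02, SE 0.39, adjusted p = 0.0440). Igfbp2, which binds insulin-like growth factors, was at 5.71, 11.1, 3.56 and 6.37 and 13.3, 17.1, 24.4 and 37.4 TPM (1.63, adjusted p = 0.0440), and it was the 1 gene of the 84 besides the target still called with a sex term. The water channel Aqp1, the BMP and Wnt antagonist Sostdc1, the amino acid carrier Slc6a20a and the homeobox gene Msx1 rose by 1.16, 1.35, 1.11 and 1.20 (adjusted p = 0.0446, 0.0440, 0.0440 and 0.0440). HOM-7901, the female, was the highest homozygote in each of these 6 genes. The LIM protein Csrp2, at 4.15, 5.73, 5.67 and 5.46 and 11.3, 12.3, 13.7 and 14.3 TPM, had the smallest adjusted p besides the target (0.0280).

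Myelin genes ran the other way. The summed TPM of 16 oligodendrocyte and myelin markers was 4224, 5936, 4857 and 8013 in wild types and 3642, 2230, 2630 and 2869 in homozygotes, without overlap. The heterozygotes, at 2888, 2609, 2183 and 2351, were as low as the homozygotes. Of 12 tested 11 were lower, 1 was called, and the median was -0.72. Ermn, a cytoskeletal protein of myelinating cells, was at 2.81, 5.33, 3.17 and 6.51 and 1.14, 0.655, 0.975 and 1.14 TPM (log2 difference -1.42, SE 0.20, adjusted p = 0.0349). Mbp, myelin basic protein, was at 2055, 3725, 2906 and 5954 and 1793, 688, 1008 and 1008 TPM. It was not called in the TPM table (adjusted p = 0.0656), like Mobp (0.0721). Both were called lower in the RPKM table (adjusted p = 0.03635 and 0.04259). The exception was Enpp2, an enzyme that choroid plexus also makes, at 84.4 ± 44.5 and 239.6 ± 153 TPM (log2 difference 1.47, adjusted p = 0.0897), named after its value was seen. Other genes that fell, grouped here after their values were seen, are known from oligodendrocytes, such as the lysophosphatidic acid receptor Lpar1 (8.62 ± 3.68 to 2.73 ± 0.754 TPM), the protease Adamts4 (-1.11) and Tmem88b (-1.12). Trp53inp2, a nuclear protein that takes part in autophagy, fell from 59.9 ± 20.1 to 25.6 ± 6.67 TPM (adjusted p = 0.0479), Qdpr, which regenerates tetrahydrobiopterin, also fell (log2 difference -0.80), as did the plakophilin Pkp4 (-1.27). Myelin had been removed with beads before collection, and the part of leftover myelin in these differences was not tested.

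Monocyte, neutrophil and B cell markers had positive medians, and T and NK cell markers overlapped between the groups. Monocyte markers summed to 687, 946, 818 and 734 TPM in wild types and 1270, 1171, 2658 and 1140 TPM in homozygotes. HOM-7899 stood far above the other 3, which still lay above all wild types. All 15 tested were higher (beside 60% of all genes), with a median of 1.24 (0.87 without HOM-7899). Nr4a1, which is also in the immediate early list, was the 1 call in the TPM table, and 5 monocyte markers were called higher in the RPKM table. Among the 5 was Ly6c1, which did not follow the rest of the list elsewhere. It was at -0.74 in heterozygotes against wild type and at -1.43 in homozygotes at 3 months. The list medians there were 0.32 and 0.59. The part of such cells in the rise of Nr4a1 and in the immediate early genes was not tested. Ace, which patrolling monocytes express, was at 5.73, 14.2, 3.81 and 5.58 and 15.1, 16.4, 101 and 26.5 TPM (adjusted p = 0.0753) and S100a4 at 55.2, 86.8, 79.4 and 52.1 and 151, 132, 364 and 118 TPM (adjusted p = 0.0837). Neutrophil markers summed to 749, 1626, 2897 and 1603 TPM in wild types and 5366, 6599, 4008 and 2671 TPM in homozygotes, with overlap. Their median of 1.66 (1.06 with a sex term, 0.62 with alignments as a term) came with 0 calls, and the granule genes Ltf and Lcn2 and the plasma protein Hp differed by 2.39, 2.19 and 2.02 (adjusted p = 0.181, 0.181 and 0.0959). B and plasma cell markers were low but did not overlap, at 39.7, 29.3, 32.8 and 28.7 TPM in wild types and 42.9, 53.6, 70.8 and 40.8 TPM in homozygotes. Of them 5 of 5 tested were positive (beside 60% of all genes), with a median of 1.40 and 0 calls (1 higher in the RPKM table). T and NK cell markers summed to 88.1, 138, 71.8 and 169.9 and 117, 97.1, 189.5 and 107 TPM. Of them 7 of 10 were positive (70%, near the 60% of all genes), with 0 calls and a median of 0.32 (-0.04 without HOM-7899). Border-associated macrophage markers had a median of 0.36, with 14 of 14 higher (beside 60% of all genes) and 0 called (1 higher in the RPKM table). Astrocyte markers had a median of 0.02 (0.36 with a sex term). Neuron markers had one of -0.55 (-0.17 with a sex term), with Snap25 at 9.81, 23.2, 3.74 and 24.9 and 3.33, 2.495, 4.49 and 10.3 TPM (log2 difference -1.27, -0.43 with a sex term, adjusted p = 0.185). Kif5a, a neuronal kinesin among the genes of amyotrophic lateral sclerosis, was at 611, 1244, 92.9 and 1295 and 81.1, 69.2, 199 and 429 TPM (log2 difference -1.89, -0.53 with a sex term, adjusted p = 0.197) and was highest in WT-7783 and WT-7943, the wild types with the highest neuron sums.

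**Figure D5:**
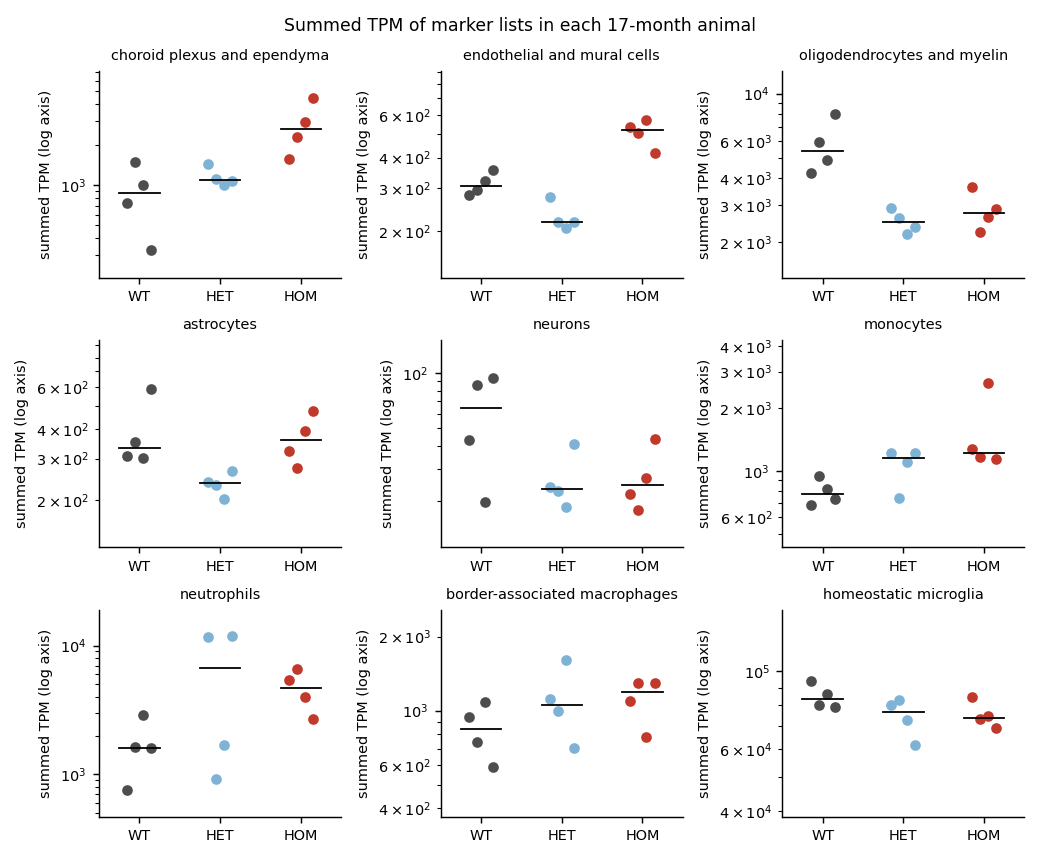
Summed TPM of 8 lists of markers of other cells and of the homeostatic microglia list in each 17-month animal (points, log axis), with the median of each genotype as a line. Choroid plexus and ependyma, endothelial and mural, and monocyte sums are higher in all 4 homozygotes than in any wild type and myelin sums are lower, while the other lists overlap.

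In heterozygotes against wild type, 0 of 11792 genes were called higher (0%, with 324 at an unadjusted p under 0.05) and 28 were called lower (0.237%). Of the 55 genes that rose in homozygotes, 31 were also above wild type in heterozygotes (56.4%, beside 46.8% of all genes), and of the 29 that fell, 28 were below (96.6%, beside 53.2% of all genes). For 51 of the 84 the heterozygous mean lay between the other 2 genotypes. Against heterozygotes, 199 genes were higher in homozygotes (1.69%) and 20 lower (0.170%), among them 35 of the 55 and 7 of the 29. These comparisons share animals, so the counts are not independent of each other. The 7 were the target, Gpr34, Xlr, Vamp7, Tmed5, Hltf and Rnf128, called lower in homozygotes than in both other genotypes. Of the 29, 10 were called lower in heterozygotes too, the target and Ermn, Lpar1, Trp53inp2, Tmem88b, Adamts4, Pkp4, Qdpr, Svip and the phosphatase Dusp19 (log2 differences of those 9 from -1.69 to -0.82).

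At 3 months 24.9% of the 11587 genes tested had a positive difference and 75.2% a negative one. Of 51 genes that rose at 17 months and were tested in the young animals 11 were positive there (21.6%), and of the 29 lower genes 18 were negative (62.1%), shares near or below that background. Over all genes the median difference was -0.099 in the young and 0.054 in the aged animals. The change of the genotype difference between the ages was tested over 24 animals and 11436 genes, and 29 genes were called (0.254%). Of the 84 genes, 80 could be tested this way and 7 were called. They were Cetn3, Cox8b, Dock6, Ermn, Scarf1, Tnfrsf25 and Zdhhc1. Zdhhc1, a palmitoyltransferase that takes part in antiviral signalling, had the smallest adjusted p. It was at 14.9, 14.5, 16.2 and 14.5 TPM in wild types and 19.9, 22.8, 23.7 and 21.9 TPM in homozygotes at 17 months, a log2 difference of 0.52 against -0.24 at 3 months (difference 0.76, adjusted p = 0.00390). Dock6, an exchange factor for Rac and Cdc42, differed by 0.68 at 17 months and -0.42 at 3 months (adjusted p = 0.0348), and Tnfrsf25, the death receptor DR3, by 0.91 and -0.45 (adjusted p = 0.0406). Nr1h2, Rnf31, a subunit of the linear ubiquitin ligase, Cluh, Rfng and Fam65a were not called at 17 months alone in the TPM table. They differed between ages, by 0.63, 0.61, 0.69, 0.69 and 0.72 (adjusted p = 0.0406 each). Some of them, such as Cluh and Fam65a, were called in the RPKM table at 17 months (adjusted p = 0.0187 and 0.0232). The endothelial list differed by 0.54 at 17 months and -0.995 at 3 months and the choroid plexus list by 1.19 and -0.85 at the median, while immediate early genes were positive at both ages (0.52 and 0.20). The number of genes with an age difference ran from 1 to 667 with 1 animal left out and was 2 with a sex term, and the ages stand in separately made tables.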

How the data were processed

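Total RNA of CD11b-enriched cells was made into stranded mRNA libraries, per the labels' protocols, in 4 animals of each genotype and age. The authors deposited TPM and RPKM values per gene, in separate tables for each age, and per the file headers the RPKM tables also carry the number of alignments. The submitters' processing notes name TopHat2 2.1.1, Partek 7.17.0918, Salmon 0.8.2, DESeq2 and the mm10 build, without saying which tool made which table. Depth enters only through these numbers of alignments, and no reads are used here.

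The 17-month animals (12) entered one fit of the 11792 genes, of 20636, whose average reached 1 TPM. They were tested as log2(TPM + 1) with limma 3.58.1 in R 4.3.3, with a mean per genotype, a trended prior variance, Benjamini-Hochberg adjustment over all genes and a threshold of 0.05. A fold change on this scale understates the change of low genes. The RPKM table was tested as log2(RPKM + 0.1) from a mean of 0.5 (12249 genes), and the age difference over 24 animals. The target and depth were compared by exact permutation tests. Sex was read from 4 Y-linked genes (limit 5 TPM). The fit was tested on simulated data. The animals are separate mice by their numbers.

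Named are the target and its partners, the 15 higher and 15 lower calls of largest change that do not overlap and have an unadjusted p under 0.05 of the same sign in the RPKM table, up to 5 calls that differ between tables, up to 4 members of each list by smallest p and its calls, P2ry12, Tmem119, Cx3cr1 and Apoe, and 10 genes for the age difference. Some genes that this rule names are not reported here. Other names were chosen after their values were seen. The members and the 39 gene lists were chosen with earlier results of these data known. Alternatives changed the pseudocount, filter, scaling, table, covariates and animals.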

Additional observations from a re-analysis of the deposited data

Results flagged for a closer look

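In 28 of 422 groups of 4 animals (6.64%), 1 animal lay apart from the other 3 by Dixon's ratio of gap to range, where chance alone passes about 1 group in 20. That animal was most often HOM-7899. HOM-7899 stood apart in Ace at 101 TPM against 15.1 to 26.5 TPM in the others, Cd2 at 5.71 against 0.851 to 1.68, Cd79a at 16.6 against 3.22 to 3.31, Cln3 at 78.7 against 67.4 to 68.95, Hp at 140.3 against 30.7 to 44.5, Ifitm3 at 931 against 297 to 401, Itgb7 at 26.3 against 8.49 to 11.5, Nr4a1 at 363 against 142 to 174, Rb1cc1 at 5.67 against 6.45 to 6.61, S100a4 at 364 against 118 to 151 and Slfn4 at 29.2 against 6.53 to 10.3. WT-7782 stood apart in Ccnd1 at 88.5 TPM against 76.4 to 76.9 TPM in the others, Hspg2 at 1.33 against 0.889 to 0.963, Rps27 at 0.0126 against 0.00580 to 0.00599 and Sema4a at 12.3 against 11.5 to 11.6. HOM-7835 stood apart in Ctss at 10130 TPM against 8344 to 8426 TPM in the others, Lamp2 at 225 against 165 to 167, Svip at 6.803 against 5.01 to 5.18 and Tmed5 at 22.7 against 15.02 to 16.1. HOM-7901 stood apart in Egfl7 at 57.7 TPM against 74.1 to 76.3 TPM in the others and Serpinh1 at 10.6 against 8.45 to 8.79. WT-7785 stood apart in Hnmt at 32.3 TPM against 26.1 to 26.6 TPM in the others, P2ry12 at 2221 against 1521 to 1637 and Rasip1 at 3.23 against 4.11 to 4.23. WT-7943 stood apart in Ly6a at 132 TPM against 83.4 to 85.97 TPM in the others. HOM-7899 also had the highest summed monocyte markers, 2658 TPM against 1140 to 1270 TPM in the other homozygotes, and the most alignments, 46.4 M. WT-7782 had the fewest, 16.7 M against 34.5 to 35.7 M in the other wild types.

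The genotype difference itself differed between the ages in 13 of the genes named here, by an interaction term over 24 animals (limma, adjusted p under the threshold). Most of the 13 were named because of their age difference, so this count is largely set by the naming rule and is no measure of frequency. Over all 11436 genes tested, 29 were called (0.254%), and far fewer were called with a sex term. On the log2 scale, the 17-month difference exceeded the 3-month one by 0.69 in Cluh, 3.21 in Cox8b, 1.10 in Dock6, 0.72 in Fam65a, 0.63 in Nr1h2, 0.69 in Rfng, 0.61 in Rnf31, 1.09 in Scarf1, 1.35 in Tnfrsf25 and 0.76 in Zdhhc1. The change between ages was -0.57 in Cetn3, -1.58 in Ermn and -0.43 in Rpl21.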

How the results depend on the processing

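The 55 higher and 29 lower calls became 12 and 7 with a pseudocount of 0.1 TPM, 74 and 31 with one of 5 TPM, 7 and 4 without a filter, and 36 and 22 from a mean of 5 TPM. They became 213 and 48 with libraries rescaled to the same sum, 204 and 405 with median centring, 278 and 355 with quantile normalization, 671 and 205 in the RPKM table, and 154 and 57 in a fit of 8 animals. They became 3 and 2 with a sex term, 0 and 1 with alignments as a term, 3 and 1 in females alone (with 1 homozygote), 0 and 1 in males alone (with 1 wild type), where the lone animal is assumed to vary like the other groups, and 1303 and 555 with array weights. Leaving out 1 animal gave 0 to 267 higher and 1 to 101 lower, and 1 to 352 called in both tables. Of the settings chosen after seeing the data, leaving out WT-7782 and HET-7796 gave 213 and 79, and median centring without HET-7796 gave 349 and 637. Genes with an age difference numbered 423 with median centring, 581 in the RPKM table, 2 with a sex term and 1 to 667 with 1 animal left out. Among genes that were not called, Apoe turned to -0.0435 with median centring (-0.0438 without HET-7796) and to -0.0897 with array weights, and ranged from -0.14 to 0.16 with 1 animal left out. Wdr41 turned to -0.0621 with median centring (-0.0624 without HET-7796), -0.0528 with quantile normalization, -0.0486 in males alone and -0.0210 with a sex term, and ranged from -0.0519 to 0.0632 with 1 animal left out. Kif5a was at 0.16 in males alone and Rps27 at -0.0611 in the RPKM table. The cause was not tested. No paired analysis was possible because the table columns carry animal numbers and not the replicate numbers of the labels. With 1 library of 16.7 M alignments among the wild types, low genes are the least precise there.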
